A study of Mus musculus with 18 samples.

Results

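Replication-dependent histone genes encode the bulk of the H1, H2A, H2B, H3 and H4 proteins that package newly copied DNA. They were followed here in 18 spontaneous mammary tumors of mice, each from its own animal. The set holds every gene whose symbol begins with Hist1h, Hist2h, Hist3h or Hist4h and does not end in -ps, which gave 69 of the 55450 genes in the files and left out 1 symbol, Hist3h2bb-ps. There were 6 H1, 20 H2A, 18 H2B, 12 H3 and 13 H4 genes. GENCODE M21 types 67 of them as protein coding and Hist1h2al and Hist1h2aj as pseudogenes.

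All 18 mice carried MMTV-Cre(+) and Pikca(H1047R, het), as the labels spell it, so an activating change in the catalytic subunit of PI3 kinase was common to every group. The remaining allele divided them into 14 Cbfb(het), 3 Cbfb(wt) and 1 Cbfb(homo) tumors, and the labels give no ages and do not say how Cbfb was altered. The MMTV promoter drives Cre in mammary epithelium, whereas RNA came from freshly isolated whole tumors, so fewer cells of a type and less RNA per cell cannot be told apart. No treatment was given. The library kit, TruSeq Stranded mRNA, selects RNA by its poly(A) tail.

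In most animal mRNAs the 3′ end is cleaved and given a poly(A) tail. Replication-dependent histone mRNAs are the textbook exception: they end just after a conserved stem-loop, which the protein SLBP binds and which the U7 particle helps to cut, and they carry no tail. Their genes have no introns and lie in clusters, and the mRNAs accumulate while DNA is copied and decay when copying stops. Some members also give longer, polyadenylated transcripts, and a poly(A)-selected library can hold those.

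Each tumor had 33210239 to 40974166 counts, the median being 37601854. Cbfb itself measured 12.8 to 71.1 TPM in the Cbfb(het), 12.03 to 35.7 TPM in the Cbfb(wt) and 10.8 TPM in the Cbfb(homo) tumor, so Cbfb(het) and Cbfb(wt) overlapped and the Cbfb(homo) tumor lay below both (TPM is a relative transcript level that is scaled by gene length and to the same total in every library). Libraries Cbfb(het) 10 and Cbfb(het) 14 were nearly alike: their counts differed by a chi-square of 4.2 per degree of freedom, and the next closest pair by 85.9. That is more than counting noise, which does not show that they came from different tumors. Both were counted because the series' design text gives each tumor its own mouse, and the results on Mki67, to which both contribute low values, are also given without them. The summed level of 10 epithelial markers was 197 and 206 TPM in these tumors and 135 TPM in Cbfb(wt) 2, against a median of 4184 TPM over all 18. Summed fibroblast and mesenchymal markers reached 25752 and 25828 TPM in Cbfb(het) 10 and 14, where the median over all 18 was 1680 TPM. They were also high in Cbfb(het) 12, at 20854 TPM, in Cbfb(wt) 2, at 12241 TPM, and in Cbfb(het) 1, at 8845 TPM.

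A stem-loop of 16 bases, with 6 base pairs opening on GG and a loop of 4 bases with T at its positions 1 and 3, was found in an annotated transcript of 46 of the 69 genes. It began 21 to 58 bases after the stop codon, with a median of 31. One spelling occurred in 26 genes, none of them H4, and another in 7 genes, all of them H4. The stem-loops below are those of retained and low genes described later, with the stem-loop in capitals and 5 bases on either side, from GENCODE M21 transcripts on GRCm38. They show that retained and low genes alike bear an element of this form.
Hist1h1c, chr13:23739507-23739532, plus strand: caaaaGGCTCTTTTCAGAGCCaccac
Hist3h2a, chr11:58955167-58955192, plus strand: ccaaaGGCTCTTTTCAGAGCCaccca
Hist2h2aa1, chr3:96246027-96246052, plus strand: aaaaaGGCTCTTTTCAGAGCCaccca
Hist1h3b, chr13:23752815-23752840, plus strand: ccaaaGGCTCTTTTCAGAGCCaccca
Hist1h4i, chr13:22040961-22040986, minus strand: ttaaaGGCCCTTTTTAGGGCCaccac
Hist1h4b, chr13:23757361-23757386, plus strand: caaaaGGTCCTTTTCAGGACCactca

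The stem-loop of Hist1h1c was identical in its 16 capital letters to those of Hist3h2a, Hist2h2aa1 and Hist1h3b, although Hist1h1c had a median of 51.3 TPM and Hist1h3b of 0.55 TPM. Some models, with or without a stem-loop, had a second kind of signal near their end. The 30 bases below are the last of 1 model per gene, except for Hist3h2a, where they start at the hexamer and stop just short of the end. Capitals mark the hexamer AATAAA or ATTAAA, which directs cleavage and polyadenylation of ordinary mRNAs.
Hist1h1c, chr13:23740338-23740367, plus strand: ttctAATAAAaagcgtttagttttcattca
Hist1h4i, chr13:22040636-22040665, minus strand: tctgtttacATTAAAagtattctatgctaa
Hist3h2a, chr11:58956797-58956826, plus strand: AATAAAataagagtacgtgtataacataag
Hist2h2be, chr3:96223709-96223738, plus strand: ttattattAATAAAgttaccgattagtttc
Hist1h2bq, chr13:21807277-21807306, minus strand: ttaAATAAAtttgtttcttctcctgcctcc
Hist1h2br, chr13:21836636-21836665, plus strand: ttaAATAAAtttgtttcttctcctgcctcc

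The bases printed for Hist1h2bq and Hist1h2br are the same, as these H2B genes are close copies of one another. In Hist1h1c, 840 bases of the model lay beyond the stem-loop, in Hist1h4i 330 and in Hist3h2a 1643. No stem-loop of the searched form was found in Hist2h2be, Hist1h2bq or Hist1h2br.

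A gene was called retained in the poly(A) libraries where its median over the 18 tumors was at least 1 TPM. This held for 16 of the 69 histone genes (23.2%), beside 25.4% of all 55450 genes. They were 2 of 6 H1, 4 of 20 H2A, 6 of 18 H2B, 1 of 12 H3 and 3 of 13 H4 genes. By symbol they were 11 of 56 Hist1 genes, 4 of 10 Hist2 genes and 1 of 2 Hist3 genes, on chromosomes 13, 3 and 11. The single Hist4 gene, on chromosome 6, was not among them. The retained pseudogene Hist1h2al, at chr13:51202727-51203065, lies apart from the other Hist1 genes, which span chr13:21715763-23934851. The 16 made up 94.3% of the summed median levels of all 69. Retained here means a level only, and whether the RNA of a gene carried a poly(A) tail was not tested. Rn7sk, a small nuclear RNA without a tail, had a median of 27.15 TPM in these libraries. A gene under the threshold may also be little expressed.

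Hist1h2bc, an H2B gene at chr13:23684199-23692908, was the most abundant, with a median of 73.0 TPM. In the Cbfb(het) tumors it ran from 47.8 to 138 TPM with a median of 68.6, in the 3 Cbfb(wt) tumors it measured 86.7, 76.5 and 56.9 TPM, and in the Cbfb(homo) tumor 83.6 TPM. The highest values belonged to Cbfb(het) 14 and 10, at 138 and 127 TPM, and the other 16 tumors lay between 47.8 and 97.5 TPM, with all 3 groups overlapping. Its annotated model is spliced, has a 3′ UTR of 742 bases and holds no stem-loop of the searched form.

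Hist1h1c, which encodes the linker histone H1.2, came second, at a median of 51.3 TPM (chr13:23738808-23740367). Among the Cbfb(het) tumors it spanned 27.2 to 148 TPM around a median of 49.5. The Cbfb(wt) values were 52.5, 71.7 and 21.6 TPM, and the Cbfb(homo) tumor had 78.9 TPM. Cbfb(het) 14 and 10 were again highest, at 148 and 136 TPM, and Cbfb(wt) 3 was lowest. These 2 genes alone took 43.6% to 70.1% of the summed histone level of a tumor. That sum itself went from 165 TPM in Cbfb(het) 4 to 417 TPM in Cbfb(het) 14, with a median of 231.

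Of the other core histones, Hist1h4i (H4) had a median of 16.1 TPM, with Cbfb(het) tumors from 7.86 to 29.5, Cbfb(wt) tumors at 13.2, 14.2 and 18.2, and 8.56 TPM in the Cbfb(homo) tumor. The H2A genes Hist2h2aa1, Hist2h2aa2, Hist3h2a and Hist1h2al had medians of 13.2, 9.39, 9.31 and 7.12 TPM. The H2B genes Hist1h2br and Hist1h2bq followed at 6.86 and 6.2 TPM, then the H4 genes Hist1h4h at 5.09 and Hist1h4n at 2.76, and Hist2h3c2, the only retained H3 gene, at 2.2 TPM. The ranges of neighbours in this order overlapped over the tumors, as the plot of levels by tumor shows.

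Close to the threshold, Hist1h2be had a median of 1.9 TPM, Hist1h2bg 1.7, Hist2h2be 1.58 and Hist1h1e, which encodes H1.4, 1.1 TPM. Just under it came Hist1h4b at 0.82, Hist1h2bb at 0.77 and Hist1h4j at 0.705 TPM. With a threshold of 0.5 TPM, 25 genes passed, and 9 genes reached 1 TPM in all 18 tumors. At the other extreme, 14 genes had a median of 0, and 4 were at 0 counts in every tumor, which allows up to 3 counts per library: Hist2h2ab, Hist1h2an, and Hist1h2aa and Hist1h2ba, whose proteins TH2A and TH2B are known from the testis.

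**Figure D1:**
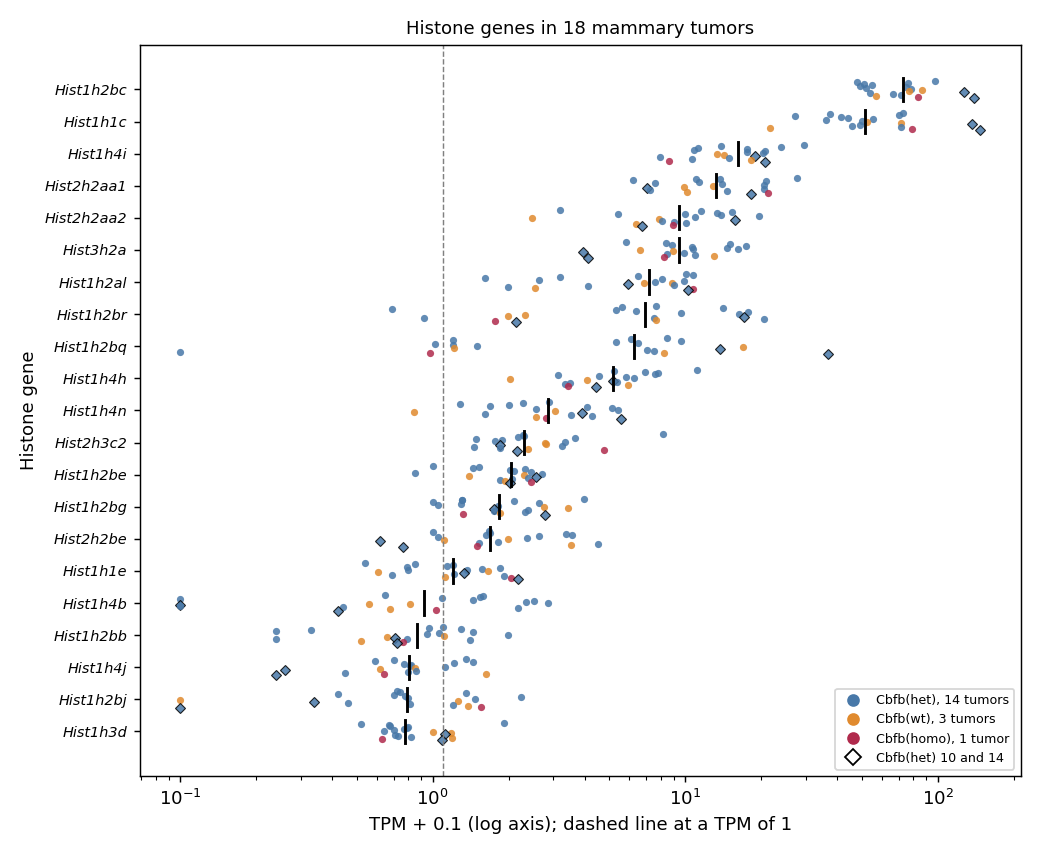
Level in each of 18 tumors (TPM + 0.1, log axis) of the 16 histone genes with a median of at least 1 TPM and the 5 next below, ordered by median (black bars); colors are Cbfb groups, and diamonds are Cbfb(het) 10 and 14. Hist1h2bc and Hist1h1c stand above the rest, and the diamonds hold their highest values.

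The linker histone genes differed widely in level. Beside Hist1h1c and Hist1h1e, Hist1h1b (H1.5) had a median of 0.43 TPM and a highest value of 0.91, Hist1h1d (H1.3) 0.21 and 0.47, Hist1h1a (H1.1) 0.19 and 0.5, and Hist1h1t, the testis form H1t, 0.09 and 0.34 TPM. Hist1h1a was counted at 0 to 8 reads a tumor and Hist1h1b at 0 to 11, or 52 and 110 reads over all tumors. Hist1h1b had the higher TPM in 15 of 18 tumors. Hist4h4, the lone gene of chromosome 6, had a median of 0.07 TPM and at most 0.15 TPM, although its model has a 3′ UTR of 2515 bases with a hexamer near the end.

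The annotated ends of the genes were then set beside their levels. A polyadenylation hexamer in the last 40 bases of a model was present in 17 genes, of which 8 were retained, and absent in 52, of which 8 were. Of 27 genes with a 3′ UTR over 150 bases, 11 were retained, against 5 of 42 with a shorter one or none. Spliced models existed for 5 genes, and 4 of these were retained: Hist1h2bc, Hist1h2bq, Hist1h2br and Hist1h2be. The fifth, Hist1h2bp, had a median of 0.205 TPM. Among 40 genes with none of these features 4 were retained, namely Hist2h2aa1, Hist2h2aa2, Hist1h2al and Hist1h4n. None of the 13 genes whose models have no 3′ UTR was. The features overlap in the same genes and depend on how completely each end was annotated, and no test was made of these counts.

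**Figure D2:**
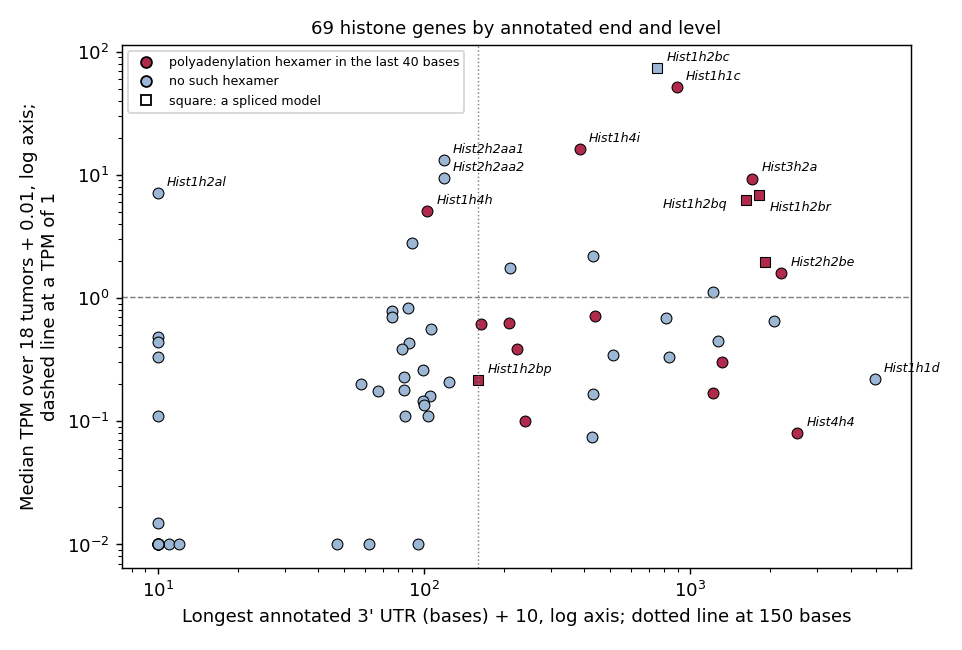
Median TPM over 18 tumors (+ 0.01, log axis) against the longest annotated 3′ UTR (bases + 10, log axis; genes without a coding model at 0 bases) for 69 histone genes; red marks a polyadenylation hexamer near the end and squares a spliced model. Of 27 genes right of the dotted line at 150 bases, 11 lie above the dashed line at 1 TPM, as do 5 of the other 42.

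Histone genes are near copies of one another, and the files show it. Of the nonzero values of these genes, 78.0% to 89.8% in a tumor were not whole counts, so reads had been shared among genes, compared with 15.6% to 17.03% over all genes. For Hist2h2aa1 and Hist2h2aa2, 89.4% and 100% of all stretches of 50 bases also occur in another gene. Hist2h2aa1 varied with a coefficient of variation of 43.5% over the tumors and Hist2h2aa2 with 45.7%, but their sum with only 25.8%, from 15.1 to 33.5 TPM. Hist1h2bq varied by 118.9% and Hist1h2br by 80.7%, and their sum by 57.1%. In Cbfb(het) 14 Hist1h2bq had 36.5 and Hist1h2br 2.04 TPM, whereas in Cbfb(het) 10, the library most like it, they had 13.6 and 16.9 TPM. The split of such a pair in 1 tumor is therefore uncertain, and the pair sums, 38.5 and 30.5 TPM in these tumors, are the firmer values. Hist1h2be also overlaps Hist1h1e on the same strand and Hist3h2a overlaps Trim17, so those values may hold reads of the neighbour. By contrast Hist2h2be, Hist1h1a, Hist1h1b and Hist1h1t share no such stretch with any gene, and Hist1h1c only 8.5%. Hist1h2bc shares 30.1% of its stretches, with 100 other genes. For both Hist1h1c and Hist1h2bc, 100% of the nonzero values were not whole counts.

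**Figure D3:**
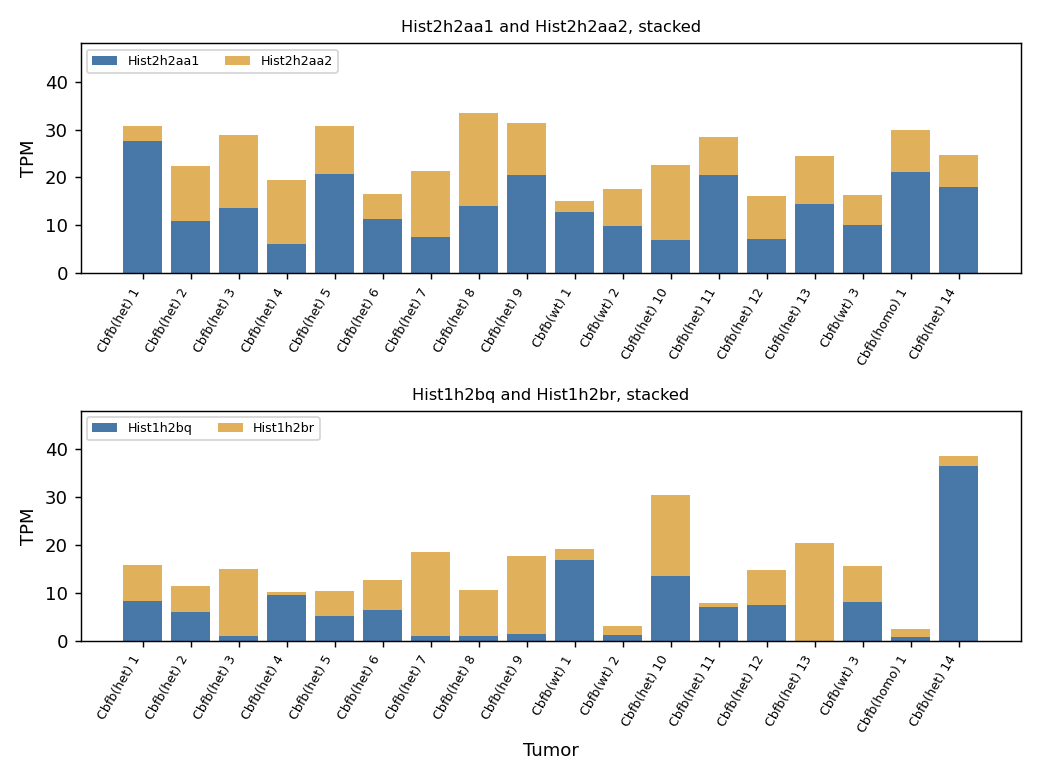
TPM of 2 pairs of near-identical genes, stacked, in each of 18 tumors. The division within a pair shifts from tumor to tumor, as between Cbfb(het) 10 and 14 for Hist1h2bq and Hist1h2br, more than the summed height does.

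Promoter sequences from RefSeq (GRCm38.p6, 250 bases before to 50 after the start) were matched for 61 of the genes. CCAAT, the letters bound by the factor NF-Y, stood on either strand in 52 of 61 (85.2%), against 41.1% of 27025 promoters. It was found for all 6 H1, 17 H2A, 16 H2B and 10 H3 genes but for 3 of 12 H4 genes. TATAAA occurred in 57.4% and in 15.7% of all promoters. ATTTGCAT, the octamer letters known from H2B promoters, occurred in 14 genes, 7 H2A and 7 H2B, and in 2.0% of all promoters. CCAAT was in 10 of 13 promoters of retained genes and in 42 of 48 others, a difference that was not tested. None of the 3 motifs contains another, and a match is a description and not a site.

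Whether histone levels followed proliferation was asked with Mki67, which encodes the Ki-67 protein of cycling cells. Its level ran from 8.56 TPM in Cbfb(het) 8 to 32.5 TPM in Cbfb(wt) 3, with a median of 16.5. On the log2 CPM scale (log2 counts relative to the TMM-scaled library size) it spread from 6.04 to 7.75 with no gap over 0.349. For each gene edgeR's quasi-likelihood test gave the slope, the log2 change per unit of Mki67 log2 CPM, and p-values were adjusted over all 18093 genes tested by the Benjamini-Hochberg method. Of the 69 histone genes 27 had enough counts to be tested, all 16 retained ones and 11 others.

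None of the 27 rose with Mki67 and 1 fell, while 6.13% of all tested genes were called, 2.28% rising and 3.86% falling. The share of histone genes called was thus near that of all genes. The gene that fell was Hist1h1c, with a slope of -0.94 ± 0.24 (SE, adjusted p = 0.028). Across the panel, 8 of 27 slopes were above 0, against 48.4% of all genes, and the median slope was -0.22 for the histone genes and -0.02 for all genes. At an unadjusted p under 0.05 none of the 27 was positive and 3 were negative, where 23.5% of all genes passed in either direction. Without Cbfb(het) 10 and 14, 31 histone genes were tested and 10 had slopes above 0. The median slope was then -0.09 for the histone genes and -0.05 for all genes, a smaller gap.

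Next to Hist1h1c stood Hist1h2bc, with a slope of -0.56 ± 0.17 (adjusted p = 0.0613), and Hist1h1d, with -0.56 ± 0.25 (adjusted p = 0.181), neither of which passed. On the positive side, the smallest p-values were those of Hist2h2be, with 0.60 ± 0.41 (adjusted p = 0.397), Hist2h4, with 0.64 ± 0.50, and Hist1h4j, with 0.46 ± 0.47, and none of these passed. Without Cbfb(het) 10 and 14 the slopes were -0.25 for Hist1h2bc, -0.28 for Hist1h1d, 0.15 for Hist2h2be, 0.52 for Hist2h4 and -0.09 for Hist1h4j. Hist1h2bc passed by DESeq2 (-0.55, adjusted p = 0.032), and in edgeR without Cbfb(het) 5 or Cbfb(het) 11 (adjusted p = 0.0399 and 0.0351). The standard errors are wide enough that a moderate rise of these 3 genes with Mki67 was not detectable here. Hist2h2be, whose counts share no stretch with another gene, ranged from 0.52 to 4.42 TPM in the Cbfb(het) tumors around a median of 1.58, was 1.89, 1.01 and 3.43 TPM in the Cbfb(wt) tumors and 1.4 TPM in the Cbfb(homo) tumor. Its lowest values were those of Cbfb(het) 10 and 14, the tumors where Hist1h1c was highest.

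**Figure D4:**
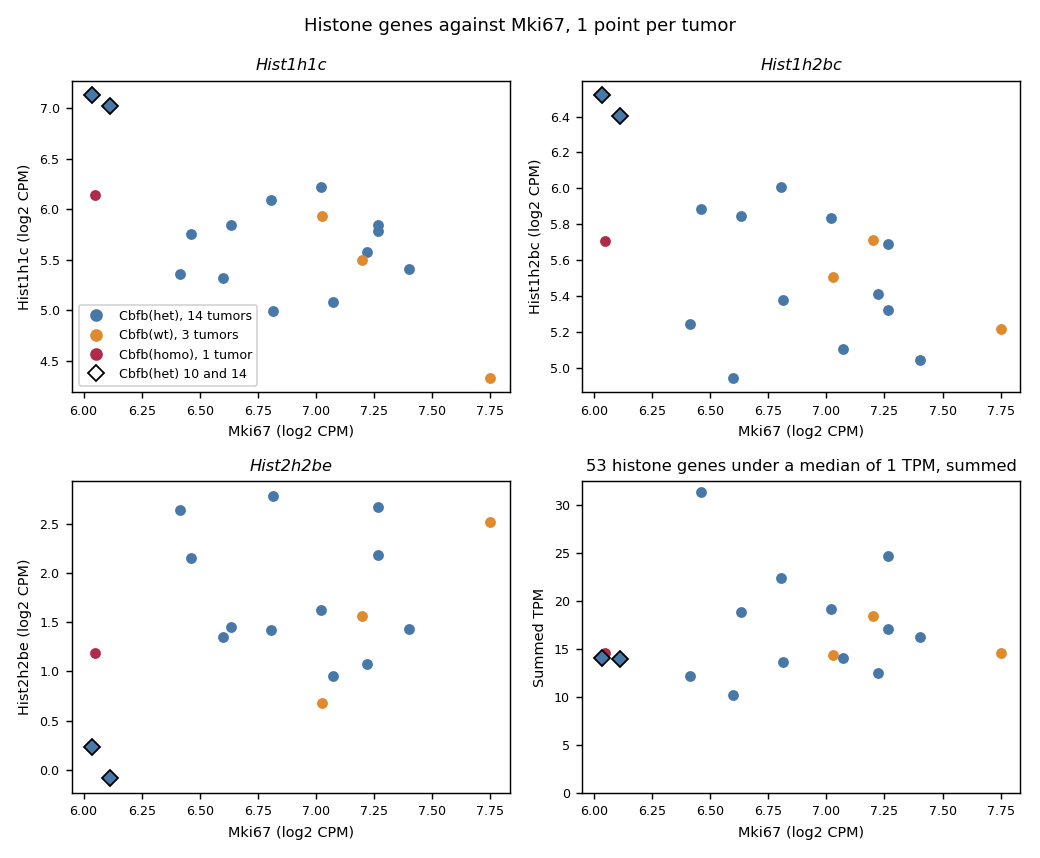
Log2 CPM of Hist1h1c, Hist1h2bc and Hist2h2be, and the summed TPM of the 53 histone genes under a median of 1 TPM, against Mki67 log2 CPM, 1 point per tumor. Cbfb(het) 10 and 14 (diamonds) lie at the low end of Mki67 with the highest Hist1h1c and Hist1h2bc and the lowest Hist2h2be.

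The fall of Hist1h1c rested on a few libraries. Without both Cbfb(het) 10 and 14 its slope was -0.46 (adjusted p = 0.538), and no histone gene was called, while the genes called in all dropped from 1110 to 10. The call was also lost without Cbfb(het) 10 alone (-0.80, adjusted p = 0.115), Cbfb(het) 14 (-0.76, adjusted p = 0.149), Cbfb(het) 6 (-0.96, adjusted p = 0.0544) or Cbfb(wt) 3 (-0.81, adjusted p = 0.0865), though the slope stayed below 0 in each. With the epithelial marker level as a further term it was -0.71 (adjusted p = 0.124).

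Markers of some other cell types moved with Mki67 in the same fit. Of 10 fibroblast and mesenchymal markers all had negative slopes and 2 passed, as did 2 of 6 adipocyte, 1 of 6 endothelial and 4 of 6 tested erythroid markers. All 10 epithelial markers had positive slopes, with a median of 0.74, and none passed. Of 11 tested leukocyte markers 4 had positive slopes, the median was -0.12 and none passed. None of 8 tested lymphoid and 6 skeletal muscle markers passed in edgeR, with no positive slope and medians of -0.72 and -7.10. DESeq2 called all 6 skeletal muscle markers. Without Cbfb(het) 10 and 14 none of these markers passed, 9 of the 10 fibroblast and mesenchymal slopes were negative and 7 of the 10 epithelial slopes positive. No marker of these lists was at 0 in every tumor. Summed adipocyte markers were 1096 and 1072 TPM in Cbfb(het) 10 and 14 and at most 531 TPM elsewhere. Erythroid markers summed to 8511 and 8697 TPM there and to at most 8477 TPM elsewhere. In Cbfb(het) 12, Cbfb(wt) 2 and Cbfb(het) 1, the tumors next highest in summed fibroblast and mesenchymal markers, Hist1h1c measured 45.6, 71.7 and 72.6 TPM. The part of these cell types in the slope of Hist1h1c was not tested beyond the epithelial term.

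A permutation test of the correlation, with 100000 resamples, two-sided and adjusted over the same 18093 genes, called 4.9% of all genes, 2.72% positive and 2.18% negative, and none of the 27 histone genes. For Hist1h1c Pearson's r was -0.66 (permutation p = 0.0026, adjusted p = 0.0512) and Spearman's rho -0.47 (permutation p = 0.0532). Without the 2 tumors whose Mki67 was farthest from its median, r was -0.55 (permutation p = 0.0269). For Hist1h2bc r was -0.58 (permutation p = 0.0127, adjusted p = 0.106) and rho -0.53 (permutation p = 0.0246), and r was -0.47 without those 2 tumors. Hist2h2be had the highest r, 0.43 (permutation p = 0.0737, adjusted p = 0.249), with a rho of 0.37 (permutation p = 0.134) and an r of 0.29 without those 2 tumors. Without Cbfb(het) 10 and 14 r was -0.44 for Hist1h1c (adjusted p = 0.473 from the permutation test), -0.30 for Hist1h2bc and 0.11 for Hist2h2be. At an unadjusted p under 0.05 over all 18 tumors, 3 histone genes correlated negatively and none positively.

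The scale mattered to these correlations. On log2(TPM + 1) the median r of all genes moved from 0.00 to 0.19, the genes called went from 492 positive and 394 negative to 1396 positive and 11 negative, and again no histone gene was called. Hist1h1c then had an r of -0.36 and Hist2h4 the highest, 0.62 (adjusted p = 0.0735 from the permutation test). The median r of the 27 histone genes was -0.18 on the first scale and -0.05 on the second, below the median of all genes on both. Without Cbfb(het) 10 and 14 the median r on the first scale was -0.08 for the histone genes and -0.02 for all genes.

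The low genes were also added up. The 53 genes under a median of 1 TPM summed to 10.2 to 31.4 TPM, with the lowest sum in Cbfb(het) 11 and the highest in Cbfb(het) 9. Over the 18 tumors this sum had an r of 0.12 and a rho of 0.26 with Mki67 log2 CPM, and an r of 0.45 and a rho of 0.45 with Rn7sk, a small nuclear RNA that carries no poly(A) tail and ran from 8.39 to 84.5 TPM. The sum of the H2A genes had an r of 0.55 and a rho of 0.51 with Rn7sk. For the H1, H2B, H3 and H4 sums r with Rn7sk was 0.12, 0.01, 0.25 and 0.17. It was 0.13 for the retained genes together and 0.30 for these without Hist1h2bc and Hist1h1c. Of 13 RNAs without a poly(A) tail 3 were tested and none was called with Mki67, and the smallest p was that of Rn7s2, a signal recognition particle RNA, with a slope of -1.18 ± 1.35 that turned positive without Cbfb(het) 8. The r and rho of sums are given as a description, since the values share 1 library per tumor and the same scaling. The sum of all 69 genes had an r of -0.58 with Mki67 log2 CPM over 18 tumors and of -0.29 without Cbfb(het) 10 and 14. With Mki67 TPM the same sum had an r of -0.42, and -0.14 without Cbfb(het) 10 and 14. With the summed TPM of 22 S-phase genes its r was -0.05, and 0.23 without them.

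Correlations among the retained genes spread widely. Over 18 tumors the 120 pairs among the 16 had a median r of 0.11 in log2 CPM, and 81 were above 0. Hist1h2bc and Hist1h1c formed the closest pair, with an r of 0.84, and Hist1h1c and Hist2h2be the most opposed, with -0.66. These are descriptions, and pairs of near copies divide shared reads.

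Genes that act on histones or on the cell cycle showed what the same fit found elsewhere. Of 19 tested genes of G2 and mitosis, 7 rose with Mki67 and none fell, with Kif11, a mitotic spindle motor, at a slope of 0.96 ± 0.14 (adjusted p = 0.00283). Of 22 S-phase genes 6 rose and none fell, with Mcm5, part of the replicative helicase, at 0.88 ± 0.19 (adjusted p = 0.0138). The median slopes were 0.76 and 0.50 for these lists, and 0.65 and 0.50 without Cbfb(het) 10 and 14, when no gene of either list passed. Of 15 histone chaperones 2 rose, one being Nasp, which binds newly made H3 and H4, at 0.60 ± 0.14 (adjusted p = 0.0179). Without Cbfb(het) 10 and 14 the slopes were 0.89, 0.66 and 0.43 for Kif11, Mcm5 and Nasp, and none passed in edgeR (adjusted p = 0.0754, 0.198 and 0.242).

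Among 13 tested factors that make histone mRNA, including Slbp, none was called with Mki67 in edgeR, while DESeq2 called 4, all with slopes above 0. In edgeR 11 had slopes above 0 and the median was 0.27. Without Cbfb(het) 10 and 14 it was 0.19, with Slbp at 0.17, Npat at 0.46 and Casp8ap2 at 0.68. Slbp ran from 27.5 to 70.5 TPM with a slope of 0.27 ± 0.14 (adjusted p = 0.241). On the level of the S-phase list in place of Mki67, its slope was 0.67 (adjusted p = 0.0104), past the threshold. Npat, the activator of histone gene transcription, had 0.35 ± 0.16 (adjusted p = 0.193), and Casp8ap2, a component of the histone locus body, 0.58 ± 0.18 (adjusted p = 0.0577). Casp8ap2 passed by DESeq2 (0.58, adjusted p = 0.0193). In edgeR it passed with the epithelial level as a further term (0.78, adjusted p = 0.00853) and with the level of RNAs without a tail (0.52, adjusted p = 0.0354). Leaving out Cbfb(wt) 2 also brought it past the threshold, at 0.55 (adjusted p = 0.0495). Lsm10 and Lsm11, proteins of the U7 particle, had -0.19 ± 0.14 and -0.03 ± 0.13, the latter changing sign with the tumors included. None of 6 tested genes of histone mRNA decay was called, and the smallest p was that of the decapping enzyme Dcp2, at 0.54 ± 0.19 (adjusted p = 0.0994), which passed by DESeq2 (adjusted p = 0.0482) and with the epithelial level as a further term (adjusted p = 0.0379).

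Replacement histones can enter chromatin outside DNA copying, and most are made from ordinary polyadenylated mRNAs. H2afx is also known to give a stem-loop mRNA, and Cenpa to peak late in the cell cycle. The 11 genes summed to 1794 to 3016 TPM in a tumor. H2afz (H2A.Z) ran from 172 to 760 TPM with a median of 452, H1f0 (H1.0) from 89.3 to 197 with a median of 140, Cenpa, the centromeric H3, from 22.0 to 86.1 and H2afx (H2A.X) from 12.3 to 64.5 TPM. None of the 11 was called with Mki67. Cenpa had the smallest p, with a slope of 0.50 ± 0.21 (adjusted p = 0.153), H2afz had 0.56 ± 0.27, H2afx 0.58 ± 0.36 and H1f0 0.09 ± 0.16. Without Cbfb(het) 10 and 14 these slopes were 0.37, 0.10, 0.06 and 0.02. On the level of the S-phase list in place of Mki67, Cenpa had a slope of 1.19 (adjusted p = 0.000837) and H2afz of 1.20 (adjusted p = 0.0162), and both passed.

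**Figure D5:**
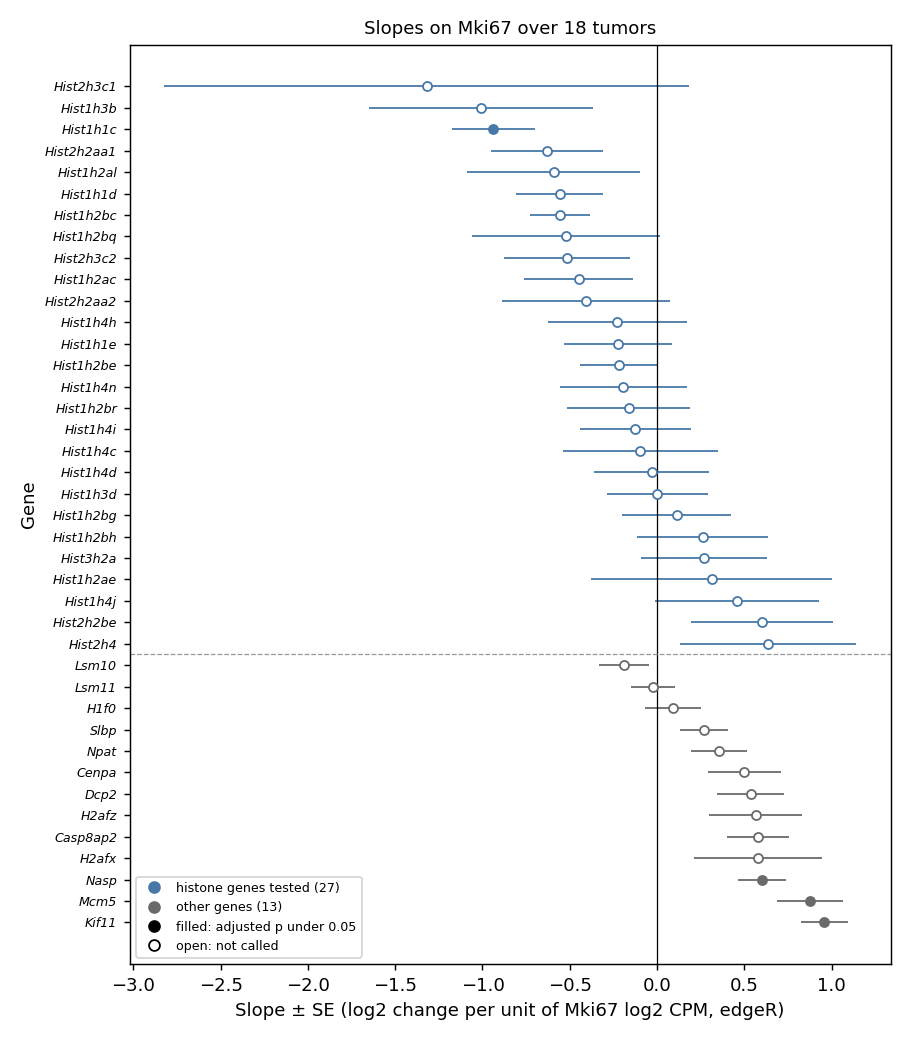
Slope on Mki67 log2 CPM with its SE (edgeR, 18 tumors) for the 27 histone genes tested (blue) and 13 other genes named in the text (gray); filled points have an adjusted p under 0.05. Hist1h1c is filled at -0.94, and Nasp, Mcm5 and Kif11 are filled above 0.

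Genotypes were compared between 14 Cbfb(het) and 3 Cbfb(wt) tumors. By edgeR no gene of 18494 was called (0.0%), and 624 had an unadjusted p under 0.05; DESeq2 and limma-voom called none either, with 934 and 489 at that level. Of the histone genes 31 were tested and none was called, so no difference by genotype was detectable with 3 Cbfb(wt) tumors. In edgeR none of the 31 had an unadjusted p under 0.05. At that level DESeq2 had 2 histone genes higher and 1 lower in Cbfb(het), and limma-voom 1 lower. In 24 of 31 the Cbfb(het) mean was the higher in the edgeR fit, against 53.2% of all genes, with a median difference of 0.35 (log2) beside 0.03 for all genes. The ranges of the groups overlapped for all 31.

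Among genes with higher fitted values in Cbfb(het), the smallest p-values were those of Hist2h2aa2, Hist2h3c1 and Hist1h4h. Hist2h2aa2 measured 10.8 ± 4.44 TPM (SD, n = 14) against 5.48 ± 2.78 (SD, n = 3), a log2 difference of 1.23 ± 0.59 (SE), and shares its reads with Hist2h2aa1. Hist2h3c1 measured 0.531 ± 0.547 against 0.06 ± 0.04 TPM, and Hist1h4h 5.63 ± 2.14 against 3.92 ± 1.96 TPM. For Hist2h3c1, 100% of all stretches of 50 bases also occur in another gene. Its counts were 41 in Cbfb(het) 10 and 0 in Cbfb(het) 14, the library most like it, so its level in a tumor is uncertain. In the other direction, Hist2h4 measured 0.264 ± 0.19 against 0.663 ± 0.183 TPM, with a log2 difference of -1.25 ± 0.62, followed by Hist1h2bg at 1.86 ± 0.817 against 2.58 ± 0.788 and Hist1h3d at 0.754 ± 0.344 against 1.02 ± 0.107 TPM. The adjusted p in edgeR was 0.999 for all 6.

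Of the abundant genes, Hist1h2bc had 74.1 ± 28.7 TPM (SD) with Cbfb(het) and 73.4 ± 15.1 TPM with Cbfb(wt), and Hist1h1c 63.1 ± 36.1 and 48.6 ± 25.3 TPM. Their log2 differences were 0.20 ± 0.30 and 0.57 ± 0.44 (SE), and neither passed. Without Cbfb(het) 10 and 14 they were 0.01 and 0.26. With a single tumor, Cbfb(homo) was left out of the tests of genotype. There 1 of the 16 retained genes lay outside the range of the other 17 tumors, the pseudogene Hist1h2al, at 10.64 TPM beside a highest value of 10.6 elsewhere.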

How the data were processed

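RNA-seq of 18 mouse mammary tumors was analysed from 1 table per tumor. The authors deposited expected counts (RSEM's estimates, which share reads between matching genes) and TPM, per the file headers; per the submitters' processing notes, the tools were RSEM 1.3.1 and STAR 2.7.0f, on mm10. The labels leave out the strand setting and the annotation release. All gene IDs occur in GENCODE M21, used for positions and models. Lengths in the deposited tables were not tested.

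Expected counts were rounded to whole numbers. Depth was 33210239 to 40974166 counts a tumor. Fits used edgeR 4.0.16 in R 4.3.3 (TMM, filterByExpr, robust quasi-likelihood F-test): a slope on Mki67 log2 CPM (prior count 2) over 18 tumors, and Cbfb(het) minus Cbfb(wt). P-values were adjusted by Benjamini-Hochberg over all genes tested, with a threshold of 0.05. SE is the estimate divided by the square root of F. Permutation correlations used 100000 resamples (20000 where a tumor was left out). DESeq2 1.42.0, limma 3.58.1, no filter, further terms, other scales, other TPM thresholds and leaving out tumors were alternatives. Fits were tested on simulated counts.

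Named histone genes were the 12 of highest median TPM, those called or with the 3 smallest p-values per direction in each fit, retained genes where the Cbfb(homo) tumor lay outside the others, and 12 listed ones, mainly H1 and testis forms. The members, lists and rules were chosen with earlier results of these data known. Further genes named were picked with their values in view. The labels call each tumor a separate animal.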

Additional observations from a re-analysis of the deposited data

How the results depend on the processing

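The 16 genes at a median of 1 TPM became 25 at 0.5 TPM, 9 with 1 TPM in all 18 tumors and 35 with 1 TPM in any. Genes called with Mki67 were 1110 in all and 2398 by DESeq2, 682 with the epithelial level as a further term, 1927 with the level of RNAs without a poly(A) tail as a further term, 651 with the S-phase list in place of Mki67, 194 with Cbfb(het) 10 and 14 as their mean, 10 without both (chosen after seeing the data), and 170 to 1501 leaving out 1 tumor. The 1 histone gene called became 2 by DESeq2, 0 with the epithelial term, 0 with the S-phase list, 0 with Cbfb(het) 10 and 14 as their mean, 0 without both, and 0 to 2 leaving out 1 tumor (0 without Cbfb(het) 6, 10 or 14 or Cbfb(wt) 3; 2 without Cbfb(het) 5 or 11). By permutation correlation 0 histone genes became 1, Hist1h1c, without Cbfb(het) 4, 5, 9 or 11 or Cbfb(wt) 2, and stayed 0 otherwise, so the range leaving out 1 tumor was 0 to 1. By genotype 0 genes became 1 gene, no histone gene, with no filter on low counts, and 0 leaving out 1 tumor. The slope of Hist1h1c stayed below 0 in all 27 alternatives, from -1.02 to -0.46. Hist1h4j reversed, at -0.087, without both Cbfb(het) 10 and 14. Lsm11, -0.03, turned to 0.000 with no filter, 0.032 with the epithelial term, 0.051 with the 2 tumors as their mean and 0.188 without both, and ranged from -0.135 to 0.052 leaving out 1 tumor. Rn7s2, -1.18, turned to 0.211 by limma-voom, 0.814 with the level of RNAs without a tail as a further term and 1.76 with the S-phase list, and ranged from -1.673 to 0.559 leaving out 1 tumor. The cause was not tested. No paired analysis was possible because the labels give every tumor the same repeat number, 1, and the numbers used here only name the tumors within a group. Many levels under about 1 TPM rest on few counts, but the counts behind a TPM also depend on gene length. Hist1h1d, at a median of 0.21 TPM, had 841 counts over all tumors, and Hist1h2ac, at 0.635 TPM, had 728. The short retained genes Hist1h2al, at 7.12 TPM, and Hist1h4n, at 2.76 TPM, had 425 and 314.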

Other observations

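The summed levels of the histone classes are given here against Mki67 with and without Cbfb(het) 10 and 14, as descriptions over tumors without a test. With all 18 tumors, r with Mki67 log2 CPM was -0.59 for the H1 sum, -0.45 for the H2A sum, -0.41 for the H2B sum, -0.30 for the H3 sum and -0.05 for the H4 sum. With the 16 other tumors it was -0.32 for H1, -0.65 for H2A, 0.03 for H2B, -0.48 for H3 and 0.05 for H4. The H2A sum ran from 30.5 TPM in Cbfb(het) 12 to 59.8 TPM in Cbfb(het) 9, a narrower range than that of H1, from 22.9 TPM in Cbfb(wt) 3 to 151 TPM in Cbfb(het) 14. The H3 sum was the smallest, at 2.93 to 13.1 TPM, and the H4 sum lay between 17.7 and 48.3 TPM.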
